A study of Mus musculus with 44 samples.

Results

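The endothelin and vascular endothelial growth factor (VEGF) signals of the mouse ovarian follicle were followed through 10 genes: the endothelin ligands Edn1 and Edn2, the endothelin receptors Ednra and Ednrb, the endothelin converting enzyme Ece1, the VEGF ligands Vegfa and Vegfb, the neuropilins Nrp1 and Nrp2, and angiopoietin 2 (Angpt2). Their rows were taken by gene symbol, and the genes were chosen with earlier results of these data known. All 10 had a row in both deposited tables, of 22674 genes in the maturation table and 18274 genes in the ovulation table. RNA sequencing covered 44 libraries of ovarian follicles of wild type (WT) mice of CD-1, an outbred stock. In the maturation window, the gonadotropin-dependent growth phase, 11 control libraries were treated with DMSO, the solvent, and 10 with PFNA (perfluorononanoic acid, a long-chain perfluorinated carboxylic acid). In the ovulation window, 12 control libraries were treated with hCG (human chorionic gonadotropin, which stands in for the ovulatory surge of luteinizing hormone) and 11 with hCG and PFNA. The labels give no dose, exposure time, animal age, date or batch, and they do not say whether libraries came from separate animals, follicles or cultures, so p-values measure the spread between these libraries, which may be partly technical.

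Endothelins are short peptides cut from larger precursors by converting enzymes, and they act on G protein-coupled receptors that mobilize calcium and contract smooth muscle. In the ovulating follicle, granulosa cells make endothelin 2 in a brief pulse around rupture, and the receptor EDNRA on the theca and its smooth muscle receives it. VEGF A, made by granulosa cells, drives growth and leakiness of the capillaries around the follicle through the receptors FLT1 and KDR, with neuropilins as co-receptors, while angiopoietin 2 loosens vessels by opposing angiopoietin 1 at the receptor TEK.

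PFNA was accompanied by higher Angpt2 and Ece1 in both windows. In the ovulation window the ligand Edn1 rose about 5.04-fold, Edn2 and Ednrb rose, and the receptor Ednra fell to 0.469 of the control level. Every PFNA library lay outside the control range for Edn1, Ece1 and Ednra, as it did for 26.0% of all genes tested. In the maturation window Vegfb fell to 0.633 of the control level and Ednra, Ece1, Nrp2 and Angpt2 rose. Ednra was thus called in opposite directions in the windows, although its maturation rise was at the threshold (limma adjusted p = 0.048) and the call was lost in 13 of the 21 fits with 1 library left out. The Ece1 call in maturation was lost in 3 of those 21 fits. At ovulation the Edn2 call was lost in 2 of 23 such fits, and Ednrb missed the threshold in limma with voom (adjusted p = 0.072).

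The start regions of the genes are shown for the endothelin axis, where ligand and receptor went opposite ways at ovulation. Each line gives the 250 bases before the start of the RefSeq gene model, 5′ to 3′ on the gene's own strand, from RefSeq on GRCm38.p6. Edn1 lies at chr13:42301226-42301475 on the plus strand, Edn2 at chr4:120160956-120161205 on the plus strand and Ednra at chr8:77724453-77724702 on the minus strand. Capitals mark matches to the 8 motif spellings searched on both strands.
Edn1: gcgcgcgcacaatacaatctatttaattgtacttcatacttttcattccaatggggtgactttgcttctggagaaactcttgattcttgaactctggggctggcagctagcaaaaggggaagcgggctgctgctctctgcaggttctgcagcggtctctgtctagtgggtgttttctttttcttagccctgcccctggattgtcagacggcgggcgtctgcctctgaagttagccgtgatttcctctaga
Edn2: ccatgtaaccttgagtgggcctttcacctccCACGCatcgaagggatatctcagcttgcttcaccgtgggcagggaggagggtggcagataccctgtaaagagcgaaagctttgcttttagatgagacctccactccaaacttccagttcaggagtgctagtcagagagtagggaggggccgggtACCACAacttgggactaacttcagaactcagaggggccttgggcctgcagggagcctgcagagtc
Ednra: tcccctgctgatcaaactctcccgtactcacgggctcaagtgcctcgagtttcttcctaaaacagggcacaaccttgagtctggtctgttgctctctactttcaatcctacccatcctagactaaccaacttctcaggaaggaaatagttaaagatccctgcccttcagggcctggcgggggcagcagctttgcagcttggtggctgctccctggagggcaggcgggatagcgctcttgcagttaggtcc
In the Edn2 window, CACGC is the reverse complement of the hypoxia response core GCGTG, at bases -219 to -215 from the start, and ACCACA is the reverse complement of the RUNX spelling TGTGGT, at bases -65 to -60. RUNX factors and hypoxia-inducible factors are known regulators of ovulatory genes. The Edn1 and Ednra windows held none of the letters searched, which says only that these letters are not in these windows. Of 32851 RefSeq promoter windows, 28.2% held GCGTG, 16.6% the other hypoxia spelling ACGTG, which can overlap its own reverse complement and can share an end base with GCGTG on the same strand, and 14% TGTGGT. The AP-1 spelling TGANTCA stood in 6.75% of windows, the cAMP element TGACGTCA in 1.55%, TATAAA in 12.4%, the C/EBP palindrome TTGCGCAA in 0.164% and the PPAR direct repeat (DR1, searched as a consensus of 13 letters) in 0.0335%. Windows were given for 9 of the 10 genes, 13 windows in all, some of which overlap. GCGTG was in 9 of the 13, ACGTG in 2 and TGTGGT in 2, and none of the 13 held the AP-1, cAMP, TATA, C/EBP or PPAR spelling. A GCGTG match of Ece1 lay in overlapping windows and was counted in each. Angpt2 had no entry.

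In the deposited positions on GRCm38, all 10 genes had the start that GENCODE M21 gives them. The endothelin genes are Edn1 at chr13:42301476-42307990, Edn2 at chr4:120161206-120167360, Ednra at chr8:77663031-77724464, Ednrb at chr14:103814625-103844402 and Ece1 at chr4:137862237-137965229. The vascular genes are Vegfa at chr17:46016993-46032369, Vegfb at chr19:6982473-6987651, Nrp1 at chr8:128358604-128503363, Nrp2 at chr1:62703285-62818695 and Angpt2 at chr8:18690263-18741562. Exons of another annotated gene cover 1.64% of the exon bases of Edn1 (Gm47118) and 1.66% of those of Ednra (4933431K23Rik), both on the opposite strand, and 0.818% of those of Nrp1 (Mir1903, same strand). The use of strand in counting is not given in the sources used here, so reads in those short stretches cannot be assigned to one of the genes. The gene models of the tables differ, since 4 of the 10 had the same position in both.

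Some libraries stood apart. In the maturation window PFNA replicates 1 and 2 had first principal component scores of -18.1 and -10.6, among the controls (-37.7 to -7.6), while the other PFNA libraries lay between 33.4 and 48.8. Without both, the same number of the genes were called in that window (5), with log2 differences of 2.05 for Angpt2, 0.85 for Nrp2, 0.5 for Ece1, 0.39 for Ednra and -0.75 for Vegfb. Ednra was at the threshold in that fit (limma adjusted p = 0.05 after rounding). Its call was lost without PFNA replicate 1 alone (limma adjusted p = 0.066). In oocyte markers, maturation PFNA replicates 1 and 2 summed to 169 and 147 TPM, near the controls (170 to 264 TPM). PFNA replicate 10 summed to 395 TPM, above every control, and the other PFNA libraries to 7.23 to 17.6 TPM. Replicate 10 also had the lowest granulosa sum of its group (15300 TPM) and the highest endothelial (304), mural (291), theca (1380) and immune (241) sums. It also held the highest PFNA level of Edn1, Ednra, Ece1, Nrp1 and Nrp2. Without it 3 of the genes were called, with log2 differences of 1.77 for Angpt2, 0.54 for Nrp2 and -0.63 for Vegfb, and Ednra (0.32, limma adjusted p = 0.091) and Ece1 (0.36, limma adjusted p = 0.057) did not pass. In the ovulation window control replicates 2 and 7 and PFNA replicate 5 stood apart in their share of oocyte transcripts, and 7 of the genes were called without these libraries, against 8 with them. The gene lost was Edn2. The shallowest and deepest ovulation libraries, both with PFNA, held 10600931 and 19511531 counts, and controls lay between them, while depth behind the maturation values, deposited as TPM (transcript abundance per length, scaled to a fixed total), is unknown.

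The first comparison asked how PFNA changed these signals during maturation. Of the 10 genes, 8 had a mean of at least 1 TPM and were tested, and Edn1 and Edn2 did not reach it. Of the 8, 4 were higher (Ednra, Ece1, Nrp2 and Angpt2) and 1 lower (Vegfb) with PFNA at a Benjamini-Hochberg adjusted p under 0.05 in limma. Over the 13710 genes tested 29.4% were called, 13.3% higher and 16.1% lower. Calls in all genes were 1823 higher and 2206 lower, or 45.2% higher, and rescaling the table without genes named Gm and a number, a class of predicted genes, made that share 63.8% and moved the median of all genes from 0.02 to 0.09 on the log2 scale. Under this rescaling the counts among the 10 genes were again 4 higher and 1 lower. The median log2 difference of the 8 was 0.38, beside 0.02 over all genes tested. Of the 8 none had every PFNA library outside the control range, where 1.28% of all genes tested did, 0.489% above and 0.788% below the controls.

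The second comparison asked the same of hCG-induced ovulation. All 10 genes were tested with edgeR, and 6 rose (Edn1, Edn2, Ednrb, Ece1, Vegfa and Angpt2) and 2 fell (Ednra and Nrp1). That count of 8 of 10 stands against 73.2% called of the 13438 genes tested, 37.9% higher and 35.2% lower, so it is close to the share in all genes. The groups did not overlap for 3 of the 10 (Edn1, Ece1 and Ednra), beside 26.0% of all genes tested, 11.9% above and 14.1% below the controls. The median log2 difference of the 10 was 0.63, and that of all genes 0.04. In bulk libraries fewer cells of a type and less RNA per cell cannot be told apart, and this holds for every level given here.

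**Figure D1:**
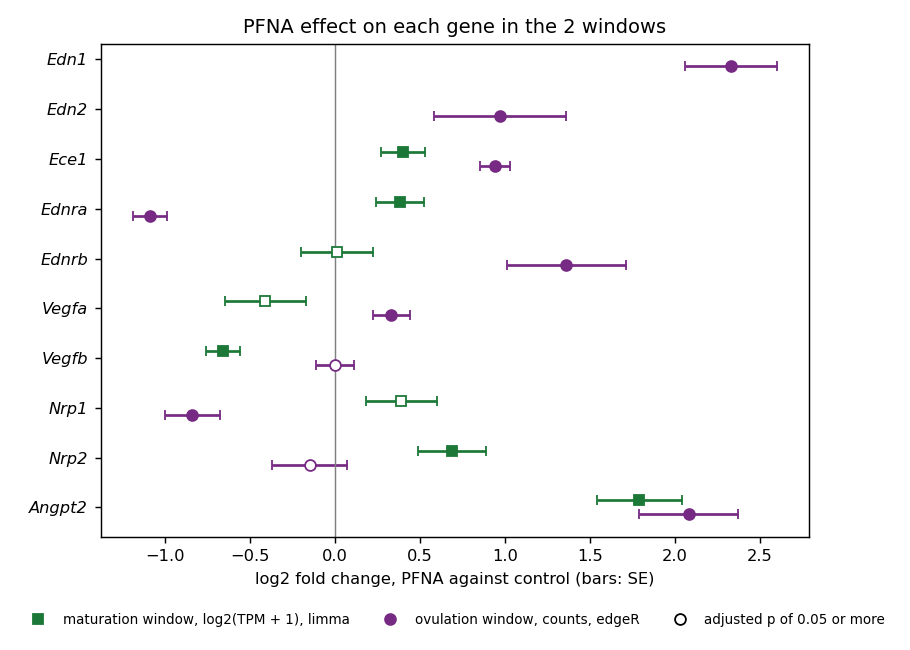
PFNA against control for each of the 10 genes in both windows, as log2 difference with its standard error (maturation: limma on log2(TPM + 1); ovulation: edgeR on counts). Edn1 and Edn2 were not tested in the maturation window; Angpt2 lies at 1.79 and 2.08, and Ednra at 0.38 and -1.09.

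Edn1 encodes endothelin 1, the main endothelin of blood vessels. During maturation it was near the floor of the table, at 0.0637, 0.236 and 0.936 TPM (lowest, median and highest of the controls) and at 0, 0.717 and 3.2 TPM with PFNA. Of the 10 PFNA libraries 4 lay above every control and 1 below, so the groups overlapped. With no filter on low values the log2 difference was 0.43 (limma adjusted p = 0.23). In the ovulation window controls ran from 3.34 over a median of 4.37 to 7.54 CPM (counts scaled to a fixed library total, TMM-normalized) and PFNA libraries from 8.33 over 20.3 to 50.6 CPM. The groups did not overlap, and PFNA libraries differed more among themselves (coefficient of variation 57.1%) than controls (27.4%). Raw counts of 46 to 104 in controls and 116 to 676 with PFNA lay behind these levels. Edn1 rose from 4.64 ± 1.27 (SD, n = 12) to 23.5 ± 13.4 CPM (SD, n = 11), which is a log2 difference of 2.33 ± 0.27 (SE, edgeR adjusted p = 2.3e-08).

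Edn2 encodes endothelin 2, the ligand of the ovulatory pulse. Maturation levels were again low: 3 controls and 2 PFNA libraries were listed at 0, the highest control was at 1.12 TPM and the highest PFNA library at 2.3 TPM, and the difference was 0.14 with no filter (limma adjusted p = 0.68). After hCG, controls held 0.0624, 1.49 and 4.05 CPM (lowest, median, highest), from 1 to 51 counts, and PFNA libraries 1.07, 2.88 and 7.61 CPM, from 18 to 104 counts. The groups overlapped widely: 3 of 11 PFNA libraries lay above every control and 10 above the control median. Edn2 rose from 1.77 ± 1.21 (SD, n = 12) to 3.45 ± 1.92 CPM (SD, n = 11), which is a log2 difference of 0.97 ± 0.39 (SE, edgeR adjusted p = 0.028). This call was lost without PFNA replicate 5 (adjusted p = 0.055) or PFNA replicate 6 (adjusted p = 0.07), and without the 3 libraries that stood apart (adjusted p = 0.058). Per length, at 1.21 CPM per kb in controls and 2.36 with PFNA, this gene was at a low level in both groups.

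Ece1 encodes the membrane protease that cuts the inactive big endothelins to their active form. Maturation libraries held it at 17.8, 35.9 and 43.9 TPM in controls (lowest, median, highest) and at 30.9, 48.4 and 60.4 TPM with PFNA, and 7 of the 10 PFNA values exceeded every control. The mean rose from 35.4 ± 7.12 (SD, n = 11) to 46.7 ± 9.08 TPM (SD, n = 10), which is a log2 difference of 0.4 ± 0.13 (SE, limma adjusted p = 0.029). Leaving out PFNA replicate 7, 9 or 10 ended this call, with adjusted p-values of 0.05, 0.054 and 0.057. At ovulation the control range was 188 to 253 CPM with a median of 206, and the PFNA range was 277 to 555 CPM with a median of 414. No PFNA library reached down to the controls. Ece1 rose from 210 ± 19.7 (SD, n = 12) to 402 ± 77.9 CPM (SD, n = 11), which is a log2 difference of 0.94 ± 0.089 (SE, edgeR adjusted p = 7.2e-10).

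Ednra encodes the endothelin A receptor, which carries the contraction signal. Maturation controls held 3.9, 5.85 and 9.89 TPM (lowest, median, highest) and PFNA libraries 5.26, 8.26 and 12.5 TPM. PFNA libraries were mostly in the upper part of a shared range, 9 of 10 above the control median and 2 above every control. The rise from 6.33 ± 1.71 (SD, n = 11) to 8.54 ± 2.24 TPM (SD, n = 10) was 0.38 ± 0.14 on the log2 scale (SE, limma adjusted p = 0.048). It sat at the threshold: the call was lost when any 1 of 13 of the 21 libraries was left out (PFNA replicates 1, 4, 5, 7, 9 and 10, control replicates 2, 3, 5, 6, 7, 10 and 11), with adjusted p-values up to 0.091. In the ovulation window controls lay at 55.7, 77.3 and 106 CPM and PFNA libraries at 29.0, 36.1 and 49.4 CPM. Here the groups were apart in the other direction, all 11 PFNA libraries below every control. Ednra fell from 77.5 ± 14.9 (SD, n = 12) to 36.3 ± 5.83 CPM (SD, n = 11), which is a log2 difference of -1.09 ± 0.1 (SE, edgeR adjusted p = 6.1e-10).

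Ednrb encodes the endothelin B receptor, which on endothelium clears endothelin and releases nitric oxide. Its maturation levels were 0.776, 1.49 and 2.86 TPM in controls and 0.402, 1.44 and 4.05 TPM with PFNA, ranges that overlapped around almost the same median. The log2 difference was 0.01 ± 0.21 (SE, limma adjusted p = 0.97). At ovulation it was at 0.955, 2.94 and 4.92 CPM in controls (14 to 73 counts) and 0.22, 8.12 and 15.9 CPM with PFNA (3 to 258 counts). PFNA libraries lay on both sides of the controls, 9 above every control and 1, replicate 6, below. Replicate 6 also had the lowest summed endothelial (53.1 CPM) and mural (226 CPM) markers of its group, and their part in its Ednrb level was not tested. Ednrb rose from 3.15 ± 1.33 (SD, n = 12) to 8.1 ± 4.02 CPM (SD, n = 11), which is a log2 difference of 1.36 ± 0.35 (SE, edgeR adjusted p = 0.0012), and it missed the threshold in limma with voom (adjusted p = 0.072).

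**Figure D2:**
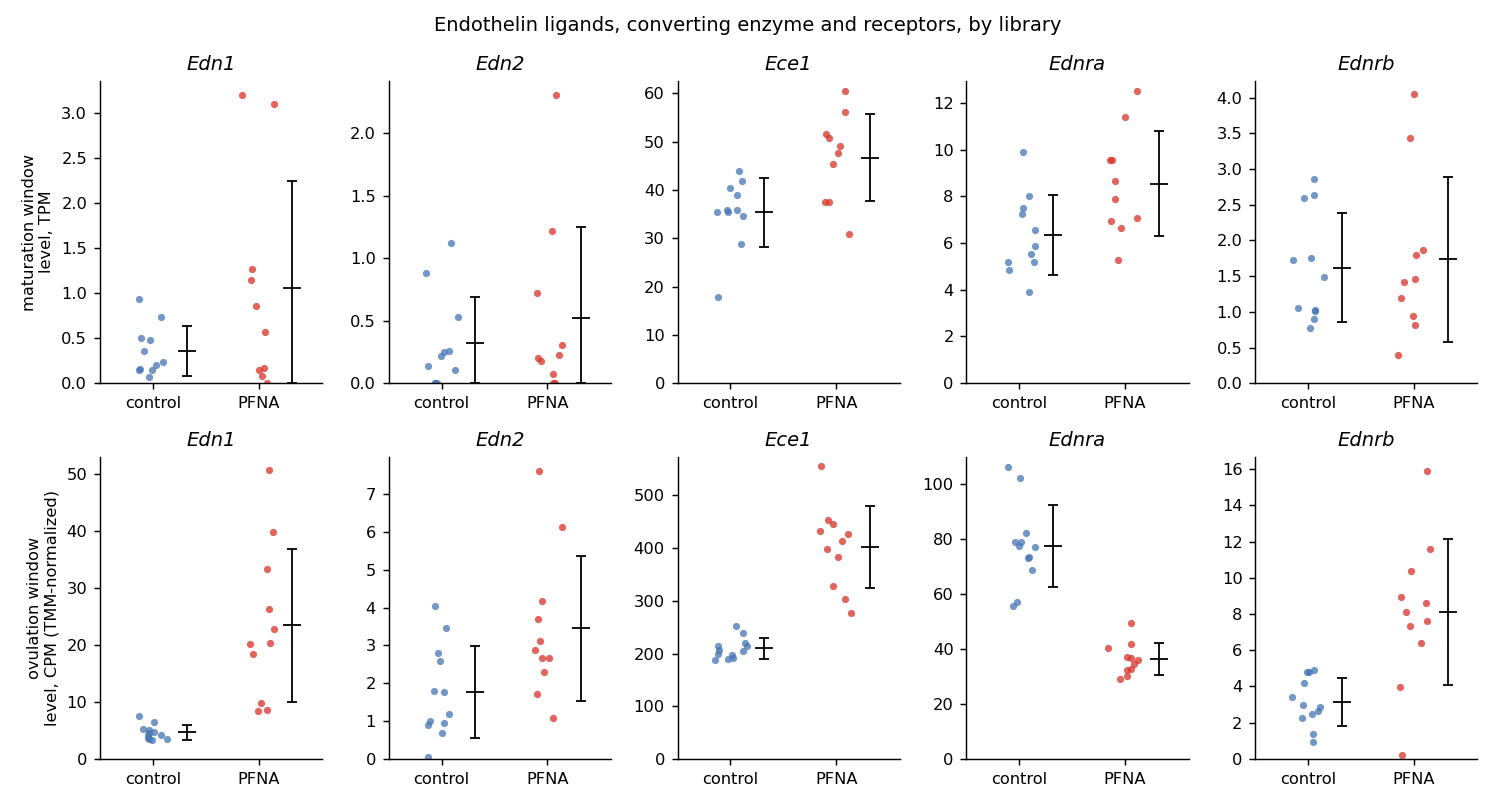
Levels of the 5 endothelin genes in each library (points) with group mean and SD (bars), in TPM for the maturation window (top) and TMM-normalized CPM for the ovulation window (bottom). In the bottom row all 11 PFNA libraries lie above the controls for Edn1 and Ece1 and below them for Ednra, while Edn2 and Ednrb overlap.

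Vegfa encodes VEGF A, the main growth factor of follicular capillaries. Controls of the maturation window held 74.7, 133 and 179 TPM (lowest, median, highest) and PFNA libraries 42.0, 110 and 235 TPM. Of the 10 PFNA libraries 9 were below the control median, but replicate 5 was above every control. The means of 130 ± 31.8 (SD, n = 11) and 107 ± 54.7 TPM (SD, n = 10) gave a log2 difference of -0.41 ± 0.24 (SE, limma adjusted p = 0.21), which did not pass the test. At ovulation the levels were 199, 317 and 406 CPM in controls and 266, 409 and 485 CPM with PFNA. The ranges overlapped, with 6 of 11 PFNA libraries above every control. Vegfa rose from 317 ± 60.7 (SD, n = 12) to 397 ± 64.2 CPM (SD, n = 11), which is a log2 difference of 0.33 ± 0.11 (SE, edgeR adjusted p = 0.0084). Per length it was the most abundant of the 10 genes in the ovulation window, at 277 CPM per kb in controls and 347 with PFNA. The length used was the median of its 8 coding transcripts, 1143 bases. Its exons together cover 4285 bases, and with a longer length these levels would be lower.

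Vegfb encodes VEGF B, a ligand of FLT1 linked to lipid handling and vessel survival more than to sprouting. Its maturation levels were tight in controls, at 81.1, 102 and 106 TPM, and lower with PFNA, at 45.4, 60.1 and 81.9 TPM. Of the 10 PFNA libraries 9 lay below every control, and the highest, replicate 1, is among the libraries that stood apart. Vegfb fell from 97.0 ± 9.11 (SD, n = 11) to 62.0 ± 13.1 TPM (SD, n = 10), which is a log2 difference of -0.66 ± 0.098 (SE, limma adjusted p = 4.8e-05). In the ovulation window controls held 16, 20.5 and 24.2 CPM and PFNA libraries 14.4, 19.1 and 31.0 CPM, with both means at 20.3 CPM. Those ranges overlapped throughout, and the log2 difference was 0.00 ± 0.11 (SE, edgeR adjusted p = 0.98).

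Nrp1 encodes neuropilin 1, a co-receptor of VEGF A and of class 3 semaphorins found on endothelium and other cells. During maturation it stood at 0.86, 2.07 and 5.0 TPM in controls and at 1.8, 3.24 and 5.94 TPM with PFNA, overlapping ranges, with a log2 difference of 0.39 ± 0.21 (SE, limma adjusted p = 0.18). At ovulation the control levels were 59.0, 104 and 176 CPM and the PFNA levels 35.9, 59.0 and 78.1 CPM. PFNA libraries were low, all 11 below the control median and 6 below every control. Nrp1 fell from 106 ± 32 (SD, n = 12) to 59.1 ± 13.3 CPM (SD, n = 11), which is a log2 difference of -0.84 ± 0.16 (SE, edgeR adjusted p = 3.4e-05).

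Nrp2 encodes neuropilin 2, the co-receptor more typical of veins and lymphatics. Its maturation levels were 0.426, 0.956 and 1.54 TPM in controls and 0.913, 1.57 and 6.7 TPM with PFNA. PFNA libraries spread upward from the control range, 5 of 10 above every control. The mean of 0.917 ± 0.332 (SD, n = 11) rose to 2.36 ± 1.77 TPM (SD, n = 10), which is a log2 difference of 0.69 ± 0.2 (SE, limma adjusted p = 0.013). At levels so close to the added constant its size depends on it: 1.09 with a pseudocount of 0.1 and 0.29 with a pseudocount of 5. After hCG the controls held 13, 19.5 and 36.2 CPM and PFNA libraries 6.18, 19.1 and 36.3 CPM. The ranges overlapped and the log2 difference of -0.15 ± 0.22 did not pass (SE, edgeR adjusted p = 0.55).

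Angpt2 encodes angiopoietin 2, the vessel-loosening partner of VEGF A. During maturation the controls lay at 13, 19.8 and 46.7 TPM and PFNA libraries at 34.3, 90.8 and 124 TPM. All PFNA libraries were above the control median and 8 of 10 above every control; replicates 1 and 2 were the others. Angpt2 rose from 24.1 ± 11.1 (SD, n = 11) to 85.4 ± 30.4 TPM (SD, n = 10), which is a log2 difference of 1.79 ± 0.25 (SE, limma adjusted p = 2.7e-05). At ovulation its levels were 9.86, 17.6 and 29.6 CPM in controls and 27.6, 54.3 and 176 CPM with PFNA. The groups met at 1 library, PFNA replicate 2, with 10 of 11 above every control. The rise was from 18.2 ± 6.43 (SD, n = 12) to 77.0 ± 48.9 CPM (SD, n = 11), which is a log2 difference of 2.08 ± 0.29 (SE, edgeR adjusted p = 8.4e-07).

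**Figure D3:**
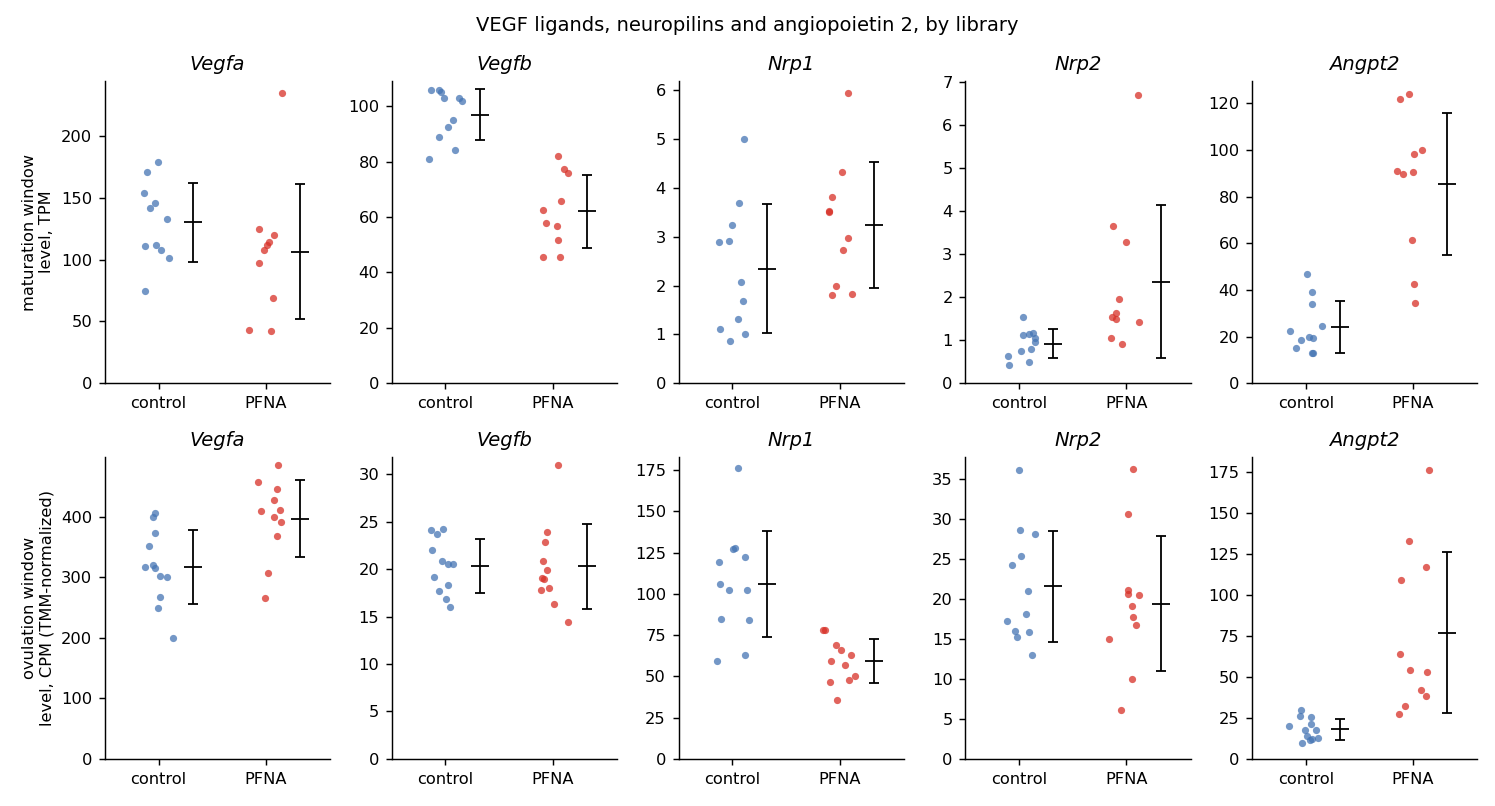
Levels of Vegfa, Vegfb, Nrp1, Nrp2 and Angpt2 in each library (points) with group mean and SD (bars), in TPM for the maturation window (top) and TMM-normalized CPM for the ovulation window (bottom). Angpt2 is high with PFNA in both rows; Vegfb is low with PFNA in the top row, and both of its means in the bottom row are 20.3 CPM.

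Within the ovulation window, levels per kb of the median coding transcript put the genes in order. The levels and places depend on that choice of length. For Vegfa 1143 bases were used where its exons cover 4285, and for Nrp1 3597 where its exons cover 9785. In controls Vegfa (277 CPM per kb) was followed by Ece1 (43.5), Nrp1 (29.5), Ednra (21.4) and Vegfb (16.7), and Angpt2 (5.1), Nrp2 (3.35), Edn1 (2.17), Edn2 (1.21) and Ednrb (0.789) were the lowest. With PFNA the levels were 347 for Vegfa, 83.4 for Ece1, 21.6 for Angpt2, 16.6 for Vegfb, 16.4 for Nrp1, 11 for Edn1 and 10 for Ednra, and the lowest were Nrp2 (3.02), Edn2 (2.36) and Ednrb (2.03), in CPM per kb. So Angpt2 moved from the sixth to the third place and Ednra from the fourth to the seventh, next to Edn1. With PFNA, Vegfb and Nrp1, and Edn1 and Ednra, are neighbours whose means lie closer together than the SD of either gene over libraries, and Angpt2 exceeded Vegfb by less than its own SD. Nrp2, Edn2 and Ednrb with PFNA were each closer to the next than the SDs of both. In controls, Nrp1 and Ednra, Angpt2 and Nrp2, and Edn2 and Ednrb, were closer than the larger of their SDs.

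The third comparison asked whether the PFNA effect differed between the windows. It was taken as the limma log2 effect at ovulation minus that during maturation for the 8 genes tested in both tables, and 7 of 8 differed, 4 more positive and 3 more negative at ovulation, where 67.7% of 11213 genes did, 32% more positive and 35.6% more negative. Ednra, up in the first window and down in the second, had a difference of -1.44 (95% interval -1.79 to -1.09, limma adjusted p = 2.3e-09). Nrp1 also had a negative difference, -1.2 (95% interval -1.73 to -0.67, limma adjusted p = 0.00012), as did Nrp2, -0.9 (95% interval -1.49 to -0.31, limma adjusted p = 0.0068). The effect was more positive at ovulation for Ednrb by 0.98 (95% interval 0.23 to 1.73, limma adjusted p = 0.018), Vegfa by 0.74 (95% interval 0.2 to 1.27, limma adjusted p = 0.014), Vegfb by 0.64 (95% interval 0.36 to 0.93, limma adjusted p = 9.9e-05) and Ece1 by 0.52 (95% interval 0.19 to 0.84, limma adjusted p = 0.0049). The Ednrb difference missed the threshold with a pseudocount of 0.1 (adjusted p = 0.077). For Angpt2 the difference was 0.06 with a 95% interval of -0.69 to 0.81 (limma adjusted p = 0.9), so an effect larger in either window by up to these amounts remains within the interval. The windows differ in hormone, gene models, unit and possibly handling, which cannot be told apart in this difference.

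The other genes of the pathways were read as lists. Of the 8 other endothelin genes, 4 were tested in the maturation window, with 2 higher and 1 lower, and 6 in the ovulation window, with 1 higher and 1 lower. Over all genes 29.4% were called in the first window (13.3% higher, 16.1% lower) and 73.2% in the second (37.9% higher, 35.2% lower), so at ovulation fewer of this short list were called than of all genes. Gna11, a G protein subunit that couples endothelin receptors to phospholipase C, was lower in both, at -0.2 (limma adjusted p = 0.012) and at -0.77 (edgeR adjusted p = 3.2e-08), and all PFNA values lay below the controls at ovulation. Its relative Gnaq rose during maturation by 0.36 (limma adjusted p = 0.013), and Mme, a protease that degrades small peptides including endothelins, rose in both windows, by 0.54 (limma adjusted p = 0.034) and 0.73 (edgeR adjusted p = 0.0031). The list medians were 0.3 and 0.17 on the log2 scale, beside 0.02 and 0.04 over all genes.

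Of the 20 other VEGF genes, 14 were tested in the maturation window, with 1 higher and 4 lower (median -0.08), and 20 at ovulation, with 8 higher and 9 lower (median 0.08), beside 29.4% and 73.2% of all genes called and medians of 0.02 and 0.04. Epas1, the hypoxia-inducible factor 2 alpha subunit, was the gene higher in maturation, by 0.45 (limma adjusted p = 0.0079), and at ovulation it went from 63.7 ± 11.9 (SD, n = 12) to 261 ± 76.1 CPM (SD, n = 11), which is a log2 difference of 2.03 (edgeR adjusted p = 1.5e-11). Vhl, whose product marks these factors for destruction, fell at ovulation from 40.6 ± 3.68 (SD, n = 12) to 18.7 ± 3.26 CPM (SD, n = 11), which is a log2 difference of -1.12 (edgeR adjusted p = 1.9e-11). All 11 PFNA libraries were outside the control range for both genes. Egln1, an oxygen-sensing hydroxylase of the same system, fell during maturation by 0.5 on the log2 scale (limma adjusted p = 0.011), as did Adamts1, an extracellular matrix protease needed for ovulation, by 0.66 (limma adjusted p = 0.011). Both were lower at ovulation too, at -0.68 for Egln1 (edgeR adjusted p = 0.00091) and -0.79 for Adamts1 (edgeR adjusted p = 1.5e-05). At ovulation Plxna1, a semaphorin receptor that pairs with neuropilins, fell by 1.26 (edgeR adjusted p = 2.5e-14), and Thbs2, an inhibitor of vessel growth, rose by 1.58 (edgeR adjusted p = 6e-07).

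Among the other VEGF ligands, Pgf (placental growth factor, a ligand of FLT1) rose at ovulation from 0.981 ± 1.02 (SD, n = 12) to 14.7 ± 9.73 CPM (SD, n = 11), which is a log2 difference of 3.88 (edgeR adjusted p = 9.6e-07). Its controls ran from 0 to 2.91 CPM and its PFNA libraries from 1.9 to 30.7 CPM, 10 of 11 above every control. Vegfc, a lymphatic ligand chosen here after its values were seen, went the other way, from 16.9 ± 9.71 (SD, n = 12) to 4.51 ± 1.37 CPM (SD, n = 11), with 10 of 11 PFNA libraries below every control (log2 difference -1.9, edgeR adjusted p = 1.1e-06). Vegfd, the other lymphatic ligand, rose from 0.497 ± 0.402 (SD, n = 12) to 2.16 ± 1.0 CPM (SD, n = 11) (log2 difference 2.1, edgeR adjusted p = 2.5e-05). Flt4, the receptor of both, rose at ovulation by 1.12 (edgeR adjusted p = 2.6e-06) but was lower in maturation, at -0.46 (limma adjusted p = 0.016). Vegfd and Flt4 too were chosen after their values were seen. The VEGF receptor Kdr rose at ovulation from 10.9 ± 4.69 (SD, n = 12) to 28.0 ± 15.7 CPM (SD, n = 11), which is a log2 difference of 1.36 (edgeR adjusted p = 0.00086), and had 0.45 in maturation (limma adjusted p = 0.37). Flt1, the other receptor, had -0.12 at ovulation (edgeR adjusted p = 0.81) and was under 1 TPM in maturation, at means of 0.595 and 0.41 TPM.

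The 5 other angiopoietin genes were all higher at ovulation (5 of 5, median 1.47), where 37.9% of all genes were called higher and the median of all genes was 0.04. Tek, the angiopoietin receptor, rose from 1.28 ± 0.857 (SD, n = 12) to 2.91 ± 1.58 CPM (SD, n = 11) (log2 difference 1.18, edgeR adjusted p = 0.0063), and Angpt1, its stabilizing ligand, from 0.323 ± 0.297 (SD, n = 12) to 1.0 ± 0.35 CPM (SD, n = 11) (log2 difference 1.61, edgeR adjusted p = 0.0011). These are levels of at most 97 counts for Tek and 32 counts for Angpt1 in a library. In the maturation window 2 of the 5 were tested and 1 fell, Angpt4, a further ligand of TEK, by 1.13 (limma adjusted p = 9e-05). Tek and Angpt1 stayed under the filter, at 0.186 and 0.166 TPM in controls and 0.219 and 0.291 TPM with PFNA.

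**Figure D4:**
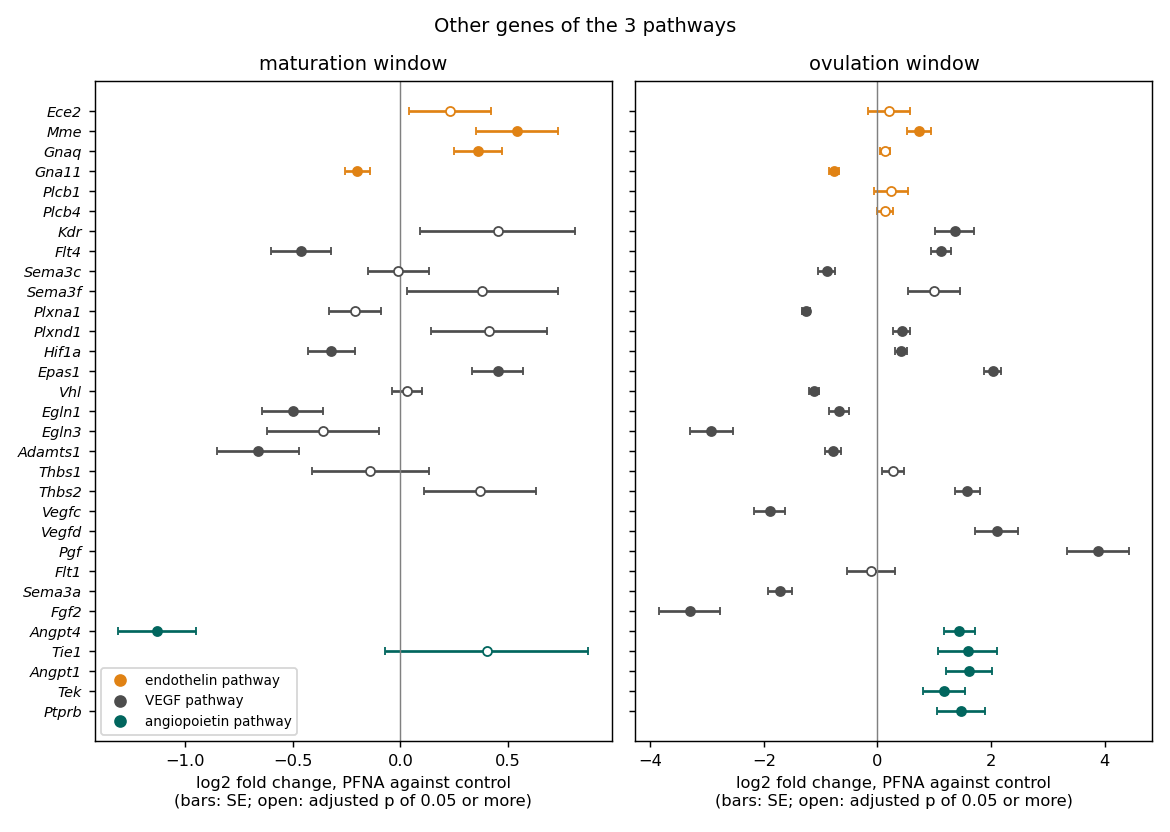
Log2 difference of PFNA against control for the other endothelin, VEGF and angiopoietin pathway genes tested in each window, with standard errors (maturation: limma on log2(TPM + 1); ovulation: edgeR on counts). At ovulation Pgf lies highest at 3.88, and all 5 angiopoietin genes lie above 0.

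Markers of the cell types a follicle can hold were read beside these results, as summed levels per library. The label of ovarian follicle is borne out by granulosa genes, which summed to 44700 to 68600 TPM in maturation controls and 12600 to 19400 CPM in ovulation controls. Of 11 endothelial markers tested with limma in maturation 0 were called (1 at an unadjusted p under 0.05), where 13.3% of all genes were called higher and 16.1% lower, with sums of 14.7 to 300 TPM in controls (median 93.5) and 43.3 to 304 TPM with PFNA (median 102). Mural cell markers (pericytes and smooth muscle) had 1 of 7 higher, theca markers 3 of 10 higher and 1 lower, immune markers 2 of 5 higher, granulosa markers 7 of 10 lower and oocyte markers 12 of 12 lower. The granulosa sums with PFNA, 15300 to 51700 TPM, lay below every control in 8 of 10 libraries. Oocyte sums were 170 to 264 TPM in controls (median 219) and 7.23 to 395 TPM with PFNA (median 14.9), 9 of 10 below every control. Among these, PFNA replicate 1, at 169 TPM, was only just below the lowest control, and replicate 2 was at 147 TPM.

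At ovulation, where 37.9% of all genes were called higher and 35.2% lower, each of these lists had markers called higher with PFNA, though not all of its markers. Endothelial markers had 9 of 14 higher and 0 lower, with sums of 43.5 to 213 CPM in controls (median 145) and 53.1 to 578 CPM with PFNA (median 247), 7 of 11 above every control. The endothelial markers Cldn5 (-0.08, edgeR adjusted p = 0.86) and Flt1 were among those not called. Mural markers had 6 of 9 higher and 1 lower (Kcnj8, -3.52, edgeR adjusted p = 1.1e-08), with sums of 50.1 to 280 against 226 to 1110 CPM, and theca markers 8 of 10 higher, with sums of 301 to 1260 against 1190 to 2530 CPM. Granulosa markers had 7 of 10 higher and 2 lower with overlapping sums (12600 to 19400 against 11900 to 17800 CPM), and oocyte markers 6 of 12 higher. Immune markers had 5 of 9 higher, with sums of 1.57 to 119 CPM in controls and 157 to 715 CPM with PFNA. The PFNA sums were carried by Cd3e, at means of 0.191 CPM in controls and 275 CPM with PFNA. Its log2 difference was 10.48 (edgeR adjusted p = 4.6e-17), and the source of this signal was not resolved. Without Cd3e, left out after its values were seen, the immune sums were 1.35 to 119 CPM in controls and 3.44 to 167 CPM with PFNA. No marker was at 0 in every library. The endothelial list shares Flt1, Kdr, Tek and Tie1 with the pathway lists. The part of these markers in the differences of the 10 genes was not tested.

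**Figure D5:**
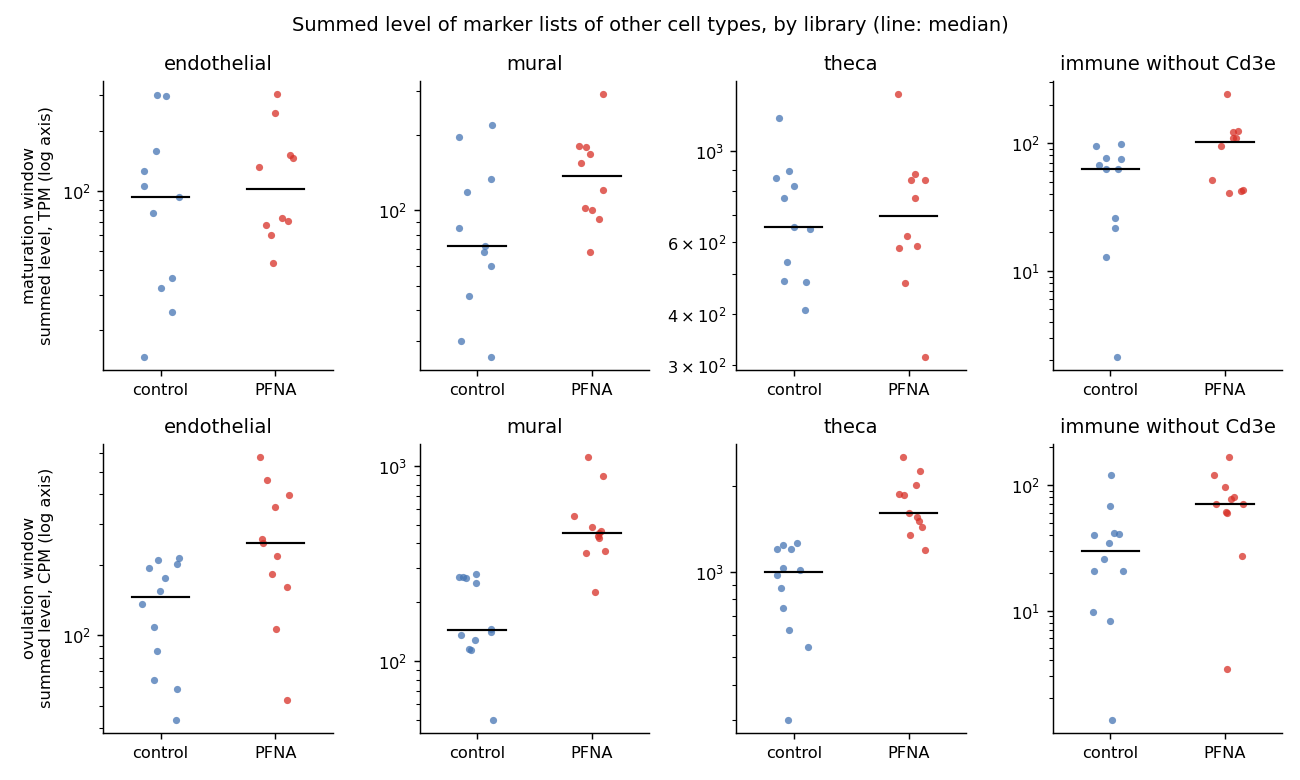
Summed level of endothelial, mural, theca and immune marker genes in each library (points, log axis, line at the group median), in TPM (top) and CPM (bottom), with Cd3e left out of the immune list after its values were seen. In the bottom row the theca and mural sums of 10 of 11 PFNA libraries lie above every control, and the endothelial sums of 7 of 11 do.

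Each gene was set against the endothelial list across libraries, after subtraction of the group means. Over 18 such relations in both windows, 4 in maturation and 2 at ovulation had an adjusted p under 0.05, all positive. Nrp1 followed the list most closely in the 21 maturation libraries, with Pearson's r = 0.89 and Spearman's rho = 0.88 (permutation p = 1e-05 for both, two-sided, the smallest 100000 resamples can give, adjusted p = 0.00018) and r = 0.86 without the 2 libraries farthest from the median. In the same libraries r was 0.63 for Nrp2 (rho = 0.66, permutation p = 6e-05, adjusted p = 0.00048, r = 0.65 without 2 libraries), 0.61 for Ednra (rho = 0.63, permutation p = 0.0037, adjusted p = 0.017, r = 0.53 without 2) and 0.59 for Angpt2 (rho = 0.56, permutation p = 0.0051, adjusted p = 0.018, r = 0.51 without 2). In the 23 ovulation libraries Ednrb followed the list, with r = 0.76 and rho = 0.71 (permutation p = 8e-05, adjusted p = 0.00048, r = 0.6 without 2), and so did Nrp2, with r = 0.57 and rho = 0.66 (permutation p = 0.0065, adjusted p = 0.019, r = 0.48 without 2). Angpt2 did not vary with the list at ovulation (r = -0.04, rho = -0.00, permutation p = 0.86, adjusted p = 0.88), nor did Ece1 (r = -0.06, rho = -0.03, permutation p = 0.82, adjusted p = 0.88) or Edn1 (r = 0.12, rho = 0.16, permutation p = 0.62, adjusted p = 0.8) pass. Libraries of 1 table share their scaling, and the relations describe these libraries.

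Among the genes themselves 73 pairs were compared in the same way, 28 in maturation and 45 at ovulation, and 5 in each window passed by Pearson's r, all positive. Ece1 and Angpt2 varied together in both windows, with r = 0.64 in maturation (rho = 0.61, permutation p = 0.0014, adjusted p = 0.015, r = 0.48 without 2 libraries) and r = 0.77 at ovulation (rho = 0.77, permutation p = 0.00011, adjusted p = 0.0027, r = 0.63 without 2). The neuropilins did so as well, with r = 0.68 in maturation (rho = 0.68, permutation p = 4e-05, adjusted p = 0.0027, r = 0.58 without 2) and r = 0.6 at ovulation (rho = 0.67, permutation p = 0.0014, adjusted p = 0.015, r = 0.64 without 2). At ovulation Ednrb varied with Nrp2 (r = 0.76, rho = 0.86, permutation p = 0.00027, adjusted p = 0.0049, r = 0.85 without 2), as deviations from the group means. Maturation PFNA replicates 1 and 2, which stood apart, were below their group mean for both Ece1 and Angpt2. They held 37.5 and 30.9 TPM of Ece1 (group mean 46.7) and 42.5 and 34.3 TPM of Angpt2 (group mean 85.4). The part of these replicates in the maturation relations, between genes or with the endothelial list, was not tested.

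The genes most like Vegfa in each window were sought over all libraries of that window, again after subtraction of the group means and with no test, since they are the highest of many. Among 6804 genes in the 21 maturation libraries these were Pfkl (r = 0.92, rho = 0.85, 0.87 without the 2 farthest libraries), P4ha2 (r = 0.89, rho = 0.74) and Pkm (r = 0.88, rho = 0.73). Pfkl and Pkm encode glycolytic enzymes and P4ha2 a collagen prolyl hydroxylase. Among 9410 genes in the 23 ovulation libraries they were Cdkn1a (r = 0.86, rho = 0.76), a cell cycle inhibitor, Abcc1 (r = 0.84, rho = 0.77), an export pump, and Bsg (r = 0.82, rho = 0.83), a membrane glycoprotein that accompanies lactate carriers. For Edn2 the highest values were lower, 0.78 for each of Kdm5b, Pi4ka and Zhx2 at ovulation and 0.67 for Arl6ip6 and Bsdc1 and 0.65 for Map4k2 in maturation, where Edn2 itself was under 1 TPM.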

How the data were processed

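RNA of ovarian follicles was isolated with a kit for small inputs and sequenced after poly-A selection, per the labels' protocols. The submitters' processing notes name Partek, Bowtie2 and HISAT2; counting settings, strand and annotation are not given in the sources used here. Although its name speaks of counts, the maturation table was deposited as TPM: each library sums to 1000000 and 99.98% of values above 0 are not whole. The ovulation table holds estimated counts as deposited by the authors (21.2% of values above 0 not whole), which were rounded. The planned count test was therefore used for the ovulation window only.

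Maturation was tested with limma 3.58.1 in R 4.3.3 on log2(TPM + 1), with trend and robust fitting, where the mean over libraries reached 1 TPM; such differences understate changes of low genes. Ovulation was tested with edgeR 4.0.16 (quasi-likelihood, filterByExpr, TMM normalization, robust), and CPM were computed here from the TMM-scaled counts. The SE given with edgeR values was derived here, as the absolute log2 difference over the square root of the quasi-likelihood F statistic. The difference between windows was the limma effect on log2(CPM + 1) minus that on log2(TPM + 1), using Satterthwaite's approximation. Adjustment was by Benjamini-Hochberg over all genes tested, at a threshold of 0.05. The scripts were tested on simulated data.

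Titles joined columns to samples. The column CN6 matched no title and was taken as CM6, maturation control replicate 6; leaving it out is among the alternatives. No maturation control replicate 4 was among the 44 libraries. Symbols turned into dates (24 and 26) were not read. No 2 libraries were identical (highest correlation within a group 0.991). Per length means per kb of the median GENCODE M21 coding transcript. The genes, lists and markers were chosen with earlier results of these data known. Named were all 10 genes; per window the 3 higher and 3 lower other pathway genes of smallest p; Flt1, Kdr, Tek and Angpt1; Vegfc, Vegfd, Flt4, Cldn5, Kcnj8 and Cd3e after their values were seen; and the 3 genes most correlated with Edn2 and with Vegfa. Alternatives varied the pseudocount, filter, scaling, test tool, replicate block and libraries.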

Additional observations from a re-analysis of the deposited data

Results flagged for a closer look

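In the PFNA group of the maturation window 1 library stood far above the other 9 for 3 of the 10 genes. Edn2 was at 2.3 TPM in replicate 6, with the next library at 1.22 TPM, Vegfa at 235 TPM in replicate 5, with the next at 125 TPM, and Nrp2 at 6.7 TPM in replicate 10, with the next at 3.66 TPM. The gap exceeded 0.466 of the group's range in each case, by Dixon's 95% criterion. Only this group was searched, once for each of the 10 genes. The controls and the ovulation groups were not searched, so such libraries cannot be called particular to it. For normally distributed values chance gives about 0.5 such cases in 10 searches. Edn2, with 2 of these libraries at 0 TPM, passed narrowly at 0.468. Without replicate 10 the Nrp2 rise still passed the limma test, as it did with every other library left out (log2 differences 0.54 to 0.77).

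The PFNA effect differed between the windows for 7 of the 8 genes tested in both, beside 67.7% of the 11213 genes tested in both. The ovulation effect minus the maturation effect was -1.44 for Ednra, -1.2 for Nrp1, -0.9 for Nrp2, 0.98 for Ednrb, 0.74 for Vegfa, 0.64 for Vegfb and 0.52 for Ece1, on the log2 scale. For Ednra the effect was called in opposite directions in the windows, but the maturation call (limma adjusted p = 0.048) was lost in 13 of 21 fits with 1 library left out and with the replicate block (adjusted p = 0.11). For Nrp1, Vegfa and Ednrb it was called at ovulation and not during maturation, and for Nrp2 and Vegfb during maturation and not at ovulation.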

How the results depend on the processing

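None of the 10 genes changed direction past its threshold under any alternative run. Over all genes the maturation calls turned from 1823 higher and 2206 lower to 3020 higher and 1713 lower after rescaling without genes named Gm and a number. In the maturation window 5 of the genes were called, 3 to 5 with 1 library left out at a time and 3 with the replicate block, which called 2890 genes in all instead of 4029. The 2 lost were Ednra (adjusted p = 0.11) and Ece1 (adjusted p = 0.054). The block also called 9296 genes instead of 9834 at ovulation, where Edn2 was lost (adjusted p = 0.14), and 7276 instead of 7586 in the difference. The block kept only replicate numbers present in both groups, so in its lost calls blocking and fewer libraries cannot be told apart. Deviations of same-numbered libraries correlated at -0.138 to 0.168 over 9 maturation pairs and at -0.193 to 0.0731 over 11 ovulation pairs. In these windows 1 and 0 pairs correlated best with their own number. Such low correlation cannot show whether a number stands for a shared animal or batch, which the labels do not say. Ednra was also lost in maturation with no filter on low values (adjusted p = 0.067).

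With 1 library left out, 3585 to 4587 genes were called in maturation, 9646 to 10025 at ovulation and 7474 to 7685 in the difference. Of the 10 genes 7 to 8 were called at ovulation in this way and 7 in the difference. At ovulation 12186 genes were called when low counts were not filtered. DESeq2 was not run in maturation because the table holds TPM. Edn1 and Edn2 in maturation had means under 1 TPM over all libraries, at an unknown depth. At ovulation low counts limit Edn2 and Ednrb, with as few as 1 (control replicate 6) and 3 (PFNA replicate 6) in a library. These libraries were not shallow, with 15673029 and 14835787 counts in all.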
